A study of Homo sapiens with 12 samples.

Results

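The glutathione S-transferases measured here were 10 genes selected by name, with earlier results of these data known, including the absence of GSTM1 in 1 of the 2 lines. All 10 were found among the 36866 genes of the deposited table. They were GSTP1 of the pi class, GSTM1, GSTM2, GSTM3 and GSTM4 of the mu class, GSTO1 of the omega class, GSTK1 of the kappa class, and the membrane-bound MGST1, MGST2 and MGST3. The 12 libraries held poly(A) mRNA from cultured THP-1 or U-937 cells, acute myeloid leukemia lines of monocytic origin that the labels give a complex karyotype. Each line was incubated for 24 h with honokiol, a biphenol from magnolia bark, or with 0.1% DMSO, the solvent, with 3 libraries for each line and treatment. The labels list honokiol at 20 and 35 μM without saying which line received which, so the dose and the line cannot be told apart. Each line is 1 cell population, and nothing in the labels ties the 3 libraries of a group to separate cultures, so p-values measure the spread between libraries, which may be technical.

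Glutathione S-transferases join the thiol of glutathione to electrophilic compounds, which makes them easier to export and less reactive. The cytosolic classes pi, mu and omega are soluble dimers, the kappa class sits in mitochondria and peroxisomes, and the microsomal enzymes are a separate family of membrane proteins that also reduce lipid hydroperoxides or make leukotriene C4. GSTM1 is known for a common deletion allele, and many people carry no working copy. In myeloid leukemia the family is studied mainly for its part in the handling of alkylating and other drugs.

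Library totals ran from 57406966 to 75065752 estimated counts, with about 4 counts taken as 1 sequenced fragment. The share of mitochondrial transcripts was 13.7% in replicate 1 of THP-1 DMSO and 12.6% in replicate 1 of U-937 DMSO, against 5.61% to 7.55% in the other libraries. Of 8 monocytic and myeloid markers, all 8 reached an FPKM (fragments per kilobase of exon, scaled to the mapped fragments of the library) of 1 in every THP-1 library, and 6 did in every U-937 library. The exceptions in U-937 were MPO, the granule peroxidase, at 0.06 to 0.17, and CD14, the lipopolysaccharide co-receptor, at 0.17 to 2.15. The summed FPKM of the B cell markers was at most 3.38, and that of the T cell, erythroid, epithelial and fibroblast markers at most 1.18, in any library.

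The 4 mu class genes lie within 84.9 kb of chromosome 1, from 109656099 to 109741038 of GRCh38, in the order GSTM4, GSTM2, GSTM1 and GSTM3. GSTM4 (109656099 to 109674836), GSTM2 (109668022 to 109709549) and GSTM1 (109687814 to 109709039) are on the plus strand and GSTM3 (109733932 to 109741038) on the minus strand. The annotated GSTM2 interval contains all of GSTM1 and overlaps GSTM4. On the opposite strand GSTM3 overlaps GSTM5 and AL158847.1 of GENCODE 29, and GSTM1 and GSTM2 overlap AC000032.1. Of the 50-base stretches in the GENCODE 29 transcripts of GSTM1, 49.7% also occur in another member or GSTM5, against 15.9% for GSTM2, 15.5% for GSTM4 and 0 for GSTM3 and the other 6 members. The split of reads between GSTM1, GSTM2 and GSTM4 is therefore uncertain, and whether the counting used strand is not given in the sources used here. GSTP1 is on chromosome 11 (67583742 to 67586656), GSTO1 on chromosome 10 (104235356 to 104267459), GSTK1 on chromosome 7 (143244093 to 143270854), MGST1 on chromosome 12 (16347142 to 16609259), MGST2 on chromosome 4 (139665768 to 139740745) and MGST3 on chromosome 1 (165631213 to 165661796), all on the plus strand.

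The 250 bases before the RefSeq transcript start are shown for the mu class genes, which were low together in U-937, for GSTP1, the most abundant member in both lines, and for GSTO1, the member with the largest honokiol difference in THP-1. RefSeq windows (GRCh38.p14) were found for 9 of the 10 members, and MGST2 was not matched. Capitals mark TGACNNNGC, the core letters of the antioxidant response element, and GGGCGG, the GC box, on either strand. Of 35116 promoter windows of this length, 10.9% hold the first and 42.6% the second.
GSTM4, chr1:109655849-109656098, plus strand: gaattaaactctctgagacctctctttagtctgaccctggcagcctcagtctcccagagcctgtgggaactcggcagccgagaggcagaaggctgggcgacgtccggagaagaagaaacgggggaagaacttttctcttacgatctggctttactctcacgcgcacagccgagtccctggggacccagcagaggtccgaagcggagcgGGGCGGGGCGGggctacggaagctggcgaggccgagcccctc
GSTM2, chr1:109667807-109668056, plus strand: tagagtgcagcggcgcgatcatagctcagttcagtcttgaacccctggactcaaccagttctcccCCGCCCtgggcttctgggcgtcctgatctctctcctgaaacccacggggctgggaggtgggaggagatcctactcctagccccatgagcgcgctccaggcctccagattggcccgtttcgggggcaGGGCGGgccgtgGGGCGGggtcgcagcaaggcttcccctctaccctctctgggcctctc
GSTM1, chr1:109687567-109687816, plus strand: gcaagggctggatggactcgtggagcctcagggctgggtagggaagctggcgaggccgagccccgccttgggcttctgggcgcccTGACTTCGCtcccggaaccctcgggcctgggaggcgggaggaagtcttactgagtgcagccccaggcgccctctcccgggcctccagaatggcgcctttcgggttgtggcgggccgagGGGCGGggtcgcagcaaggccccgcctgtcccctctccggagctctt
GSTM3, chr1:109741039-109741288, minus strand: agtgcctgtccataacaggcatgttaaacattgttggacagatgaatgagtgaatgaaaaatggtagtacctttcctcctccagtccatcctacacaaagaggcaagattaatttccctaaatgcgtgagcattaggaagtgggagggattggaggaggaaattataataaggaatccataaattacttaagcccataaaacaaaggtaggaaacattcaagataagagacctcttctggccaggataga
GSTP1, chr11:67583562-67583811, plus strand: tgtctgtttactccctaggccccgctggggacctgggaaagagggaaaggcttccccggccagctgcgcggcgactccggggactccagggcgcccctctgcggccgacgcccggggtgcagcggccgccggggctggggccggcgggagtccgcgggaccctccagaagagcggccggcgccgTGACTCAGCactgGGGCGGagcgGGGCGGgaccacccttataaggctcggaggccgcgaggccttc
GSTO1, chr10:104254642-104254891, plus strand: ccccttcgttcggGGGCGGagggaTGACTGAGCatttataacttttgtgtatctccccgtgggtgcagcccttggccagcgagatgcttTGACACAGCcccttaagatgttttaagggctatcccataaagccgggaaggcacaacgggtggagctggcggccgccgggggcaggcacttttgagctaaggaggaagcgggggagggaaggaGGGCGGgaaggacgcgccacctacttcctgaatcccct

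The mu class windows were not alike. Those of GSTM4, GSTM2 and GSTM1 had a GC content of 62.4%, 65.6% and 71.2%, against a median of 58.0% over all windows, and each held at least 1 GC box. The GSTM3 window had a GC content of 40%, 1 CG dinucleotide and neither motif, although GSTM3 shared the line difference of the other 3. The GSTP1 window was the richest in CG dinucleotides of the members, with 28 against a median of 11. It held TGACTCAGC starting 66 bases before the transcript start, and the GSTO1 window held 2 matches to the same motif. Of the mu class windows only that of GSTM1 held this motif, as TGACTTCGC starting 165 bases before the transcript start. The 2 GC box matches of GSTM4 overlap by their end bases. The RefSeq starts used for the windows differ from some of the gene starts listed above. The GSTM1, GSTM2 and GSTP1 windows run past the listed start of their gene, and the GSTO1 window lies inside the listed GSTO1 interval. A match is a description of the letters, and no binding was measured.

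The levels by line chose the members and are given as a description, with no test. In both lines GSTP1, which conjugates many drugs and also binds the stress kinase JNK, was the highest of the 10. Its FPKM in THP-1 was 156.4, 165 and 167 with DMSO and 144, 155.9 and 149 with honokiol. In U-937 it was 169, 151 and 174 with DMSO and 149.7, 149.9 and 145 with honokiol. The lines overlapped under either treatment. In bulk libraries such as these, fewer cells with a transcript and less of it per cell cannot be told apart. GSTP1 alone made up 54.1% to 64.5% of the summed FPKM of the 10 members in THP-1 libraries and 49.9% to 66.3% in U-937 libraries.

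GSTM1 was present in every THP-1 library and at or near 0 in every U-937 library, as were the other mu class genes. It had an FPKM of 8.66, 8.69 and 11.5 in THP-1 with DMSO and 8.89, 11.5 and 11.03 with honokiol, from 1604 to 2396 estimated counts a library. In U-937 it was listed at 0 in all 3 DMSO libraries and at 0.09, 0.09 and 0.05 with honokiol, from 17, 16 and 9 counts. No count in the 3 U-937 DMSO libraries allows up to 12 counts, or 3 fragments, over the group, and the THP-1 DMSO level was at least 456-fold higher per library total. Intervals and limits of this kind cover counting error only.

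The other mu class genes followed the same order. GSTM3, the isoform known from brain and testis, had an FPKM of 9.52, 10.1 and 11.3 in THP-1 with DMSO and of 9.29, 9.79 and 9.44 with honokiol. In U-937 it was 0, 0 and 0.02 with DMSO and 0.01, 0.01 and 0.02 with honokiol, at most 8 counts a library. GSTM4 was at 2.25 to 3.01 in the 6 THP-1 libraries and had no count in any of the 6 U-937 libraries, so it was at least 282-fold higher in THP-1 with DMSO and at least 263-fold higher with honokiol. GSTM2 was at 1.36 to 1.77 in THP-1 and at 0.01 to 0.06 in U-937. The 53 GSTM2 counts over the 3 U-937 DMSO libraries stood beside none for GSTM1. Together the 4 genes made 8.33% to 9.61% of the summed member FPKM in THP-1 and at most 0.0537% in U-937.

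**Figure D1:**
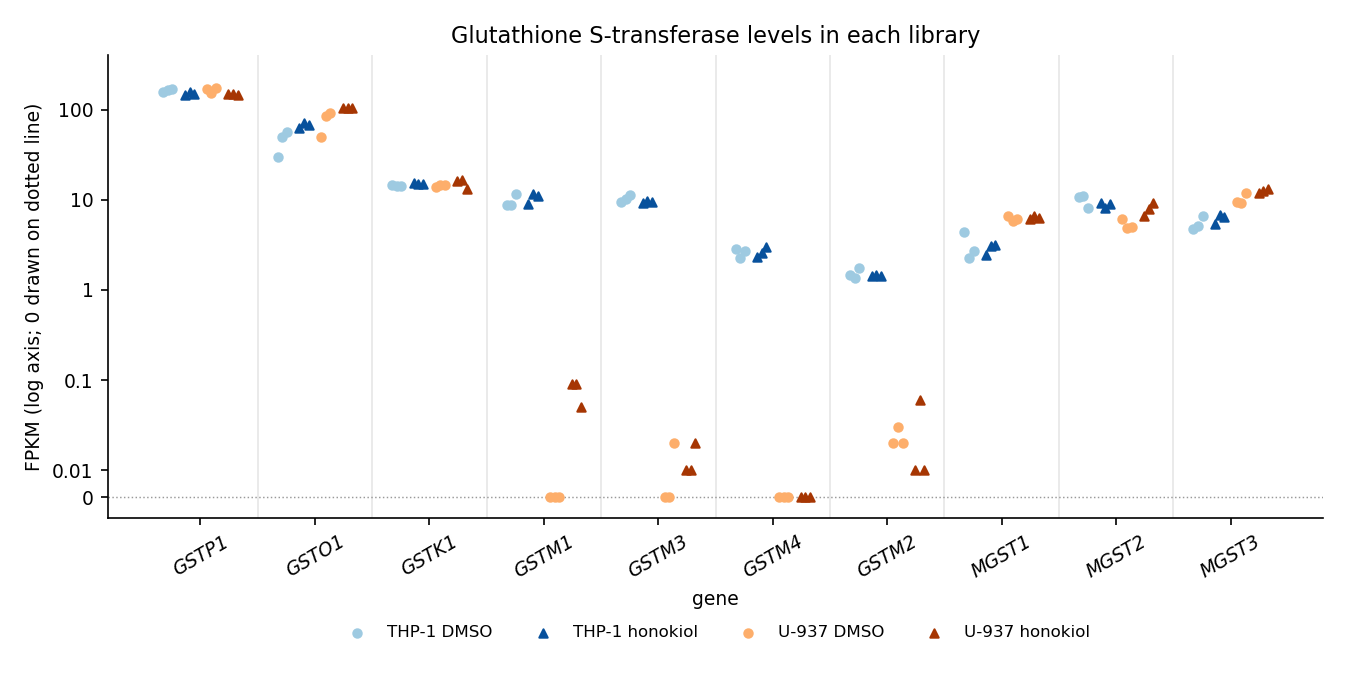
FPKM of the 10 glutathione S-transferase genes (log axis) in each of the 12 libraries, 3 points for each line and treatment, with values of 0 drawn on the dotted line. The 4 mu class genes lie between 1.36 and 11.5 in THP-1 and at or under 0.09 in U-937, while GSTP1 and GSTK1 overlap between the lines.

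Genes on either side of the mu class genes were read in both lines. AMPD2, an AMP deaminase whose listed end is 24.0 kb before GSTM4, had a mean FPKM of 5.71 ± 1.37 in THP-1 against 5.64 ± 0.444 in U-937 (SD, n = 6 libraries over both treatments). GNAI3, an inhibitory G protein subunit further out, had 10.2 ± 0.885 and 10.1 ± 1.58. On the other side AHCYL1, a binder of the inositol trisphosphate receptor that starts 244 kb after GSTM3, had 28.3 ± 7.01 and 25.9 ± 6.68. Not every neighbour was alike in the lines. CSF1, the macrophage colony-stimulating factor between GSTM3 and AHCYL1, was at 0.35 to 0.87 in THP-1 and 0.03 to 0.19 in U-937, and SORT1, the sorting receptor sortilin, was at 3.03 to 5.98 and 0.17 to 0.46. In the other direction CELSR2, a cadherin family receptor, was at 0.47 to 0.75 in THP-1 and 1.53 to 3.22 in U-937, and ATXN7L2 was at 0.45 to 0.97 and 1.03 to 1.43. These neighbours were chosen after their values were seen, as genes within 400 kb with a mean FPKM of at least 0.5 in either line. Gene dosage was not measured here.

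**Figure D2:**
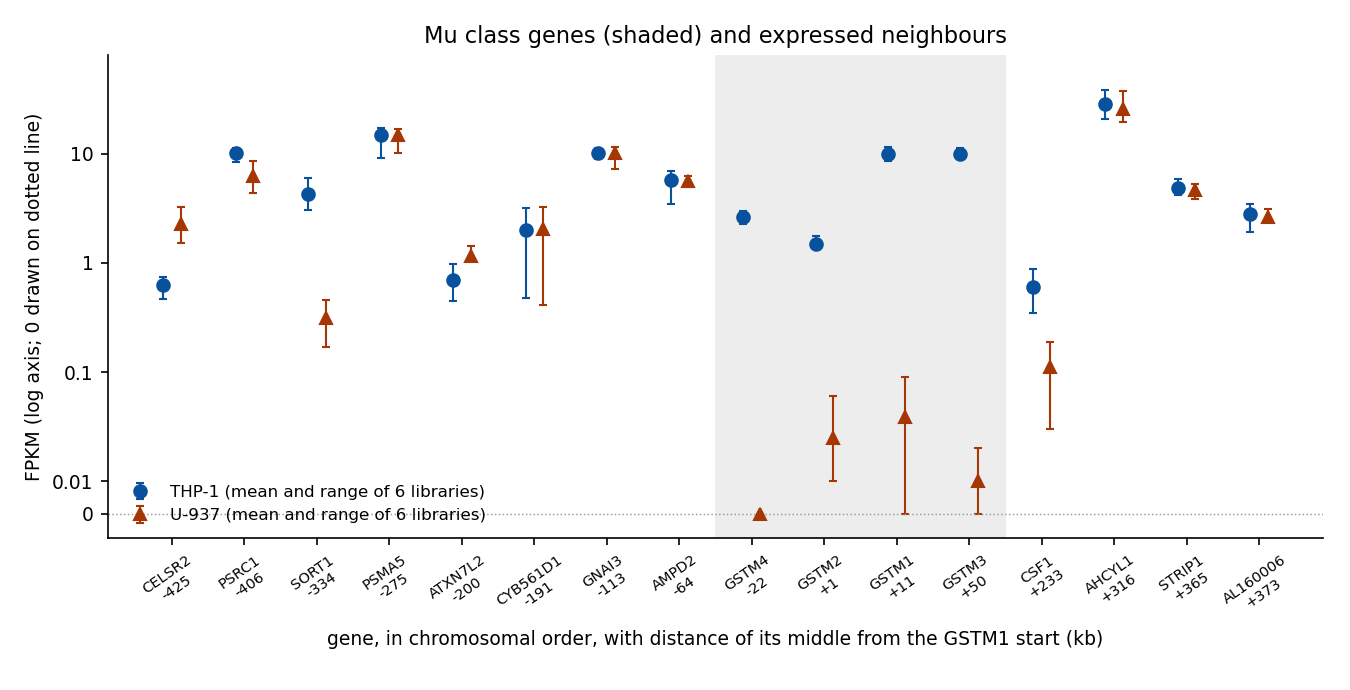
Mean FPKM (log axis, bars from the lowest to the highest of 6 libraries) of the 4 mu class genes, shaded, and of their neighbours within 400 kb, in chromosomal order with the distance from the GSTM1 start in kb. U-937 levels of the shaded genes are at or under 0.09 while AMPD2, GNAI3 and AHCYL1 overlap between the lines, SORT1 and CSF1 are lower in U-937, and CELSR2 and ATXN7L2 are higher.

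An FPKM of at least 1 in all 6 THP-1 libraries and under 0.1 in all 6 U-937 libraries was seen for 408 of 16283 genes (2.51%), 4 of them the mu class members. The rule used this contrast, so the count is context only. The reverse pattern was seen for 58 genes. The 5 genes whose pattern over the 12 libraries was most like that of GSTM1 were C2orf74, SPARC, GPX7, TCEAL9 and DUXAP10, with Pearson's r of log2(FPKM + 0.5) between 0.9991 and 0.9992. They lie on chromosomes 2, 5, 1, X and 14, and all were at 3.79 or more in THP-1 and at 0.18 or less in U-937. The correlation rests on the step between the lines, which the libraries of a line share, and no p is given.

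The members outside the mu class were present in both lines. GSTO1, which reduces dehydroascorbate and reverses glutathione-protein adducts, came next to GSTP1 in every group. GSTK1, a thioredoxin-fold enzyme of mitochondria and peroxisomes, had nearly the same mean in the lines with DMSO, 14.3 ± 0.196 in THP-1 and 14.2 ± 0.450 in U-937 (SD, n = 3). MGST1, which protects membranes from lipid peroxides, was at 2.24 to 4.34 in the THP-1 libraries and 5.87 to 6.65 in the U-937 libraries, without overlap. MGST3, a related microsomal peroxidase, was at 4.75 to 6.69 in THP-1 and 9.27 to 13.2 in U-937, also without overlap. MGST2, which can make leukotriene C4, went the other way with DMSO, at 8.12 to 10.97 in THP-1 and 4.92 to 6.12 in U-937. With honokiol the lines overlapped for MGST2, at 8.03 to 9.26 and 6.63 to 9.24.

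By mean FPKM, the order in THP-1 with DMSO was GSTP1, GSTO1, GSTK1, GSTM3, MGST2, GSTM1, MGST3, MGST1, GSTM4 and GSTM2. GSTM3, MGST2 and GSTM1 overlapped in turn, as did MGST1 and GSTM4, and the other neighbours in that order did not. In U-937 with DMSO it was GSTP1, GSTO1, GSTK1, MGST3, MGST1 and MGST2, of which only MGST1 and MGST2 overlapped, followed by the mu class near 0. With honokiol GSTM1 stood before GSTM3 in THP-1, with overlap, and MGST2 before MGST1 in U-937, without overlap.

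The effect of honokiol within each line was tested with edgeR's quasi-likelihood test on the counts, with p adjusted by Benjamini and Hochberg over all tested genes. In THP-1 all 10 members were tested, 0 had an adjusted p under 0.05 and the lowest was 0.340. Of all 14600 genes tested 0.0411% had one. In U-937 the 4 mu class genes were under the level needed for a test, 0 of the other 6 had an adjusted p under 0.05 and the lowest was 0.286, beside 0.0947% of 13726 genes. DESeq2 and limma also called 0 members in either line. At an unadjusted p under 0.05 there was 1 member in THP-1, GSTO1, beside 13.1% of all genes, and 1 in U-937, MGST2, beside 16.7% of all genes.

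GSTO1 was the member with the largest difference in THP-1. Its FPKM was 29.4, 49.2 and 57.01 with DMSO and 61.7, 71.6 and 68.1 with honokiol in THP-1. In U-937 it was 49.9, 84.4 and 90.7 with DMSO and 102.7, 104.6 and 103.4 with honokiol. Every honokiol library stood above every DMSO library in both lines, and the lowest value of each line was DMSO replicate 1. The log2 fold change was 0.53 ± 0.20 (SE, n = 3 against 3) in THP-1, with an edgeR p of 0.0320 and an adjusted p of 0.340. In U-937 it was 0.39 ± 0.19, with an edgeR p of 0.0796 and an adjusted p of 0.360. DMSO replicate 1 of each line is also the library with the high mitochondrial share, whose part in the result was not tested. Without that library the log2 fold change became 0.33 in THP-1, with an edgeR adjusted p of 0.351, and 0.18 in U-937, with 0.440. GSTO1 made up 12.1% to 20.1% of the summed member FPKM in the THP-1 DMSO libraries and 23.7% to 25.1% in the honokiol libraries. In U-937 it made up 19.6% to 31.3% with DMSO and 35.0% to 35.6% with honokiol.

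GSTP1 was lower with honokiol by FPKM in both lines. All 3 honokiol libraries lay below all 3 DMSO libraries in each line, by a small gap. The highest honokiol and lowest DMSO values were 155.9 and 156.4 in THP-1 and 149.85 and 150.96 in U-937. The log2 fold change was -0.18 ± 0.11 (SE, n = 3 against 3) in THP-1, with an edgeR adjusted p of 0.526, and -0.24 ± 0.12 in U-937, with an edgeR adjusted p of 0.367. Neither passed the test.

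In THP-1 the FPKM groups did not overlap for 3 of the 10 members, GSTP1, GSTO1 and GSTK1, beside 20.6% of all genes tested. In U-937 they did not overlap for 3 of the 6 tested, GSTP1, GSTO1 and MGST2, beside 24.2%. The separation of 2 of these depended on the scale. On counts scaled to the library total with TMM scaling, the scale of the test, GSTK1 in THP-1 and MGST2 in U-937 overlapped, while GSTM3 in THP-1 was lower with honokiol without overlap. The background on that scale was 20.4% for THP-1 against 24.0% for U-937. Of all genes without overlap, 1898 were higher and 1113 lower on FPKM in THP-1 against 1573 and 1400 on the TMM scale, and in U-937 2287 and 1029 against 1676 and 1624.

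MGST2 was the microsomal member with the largest difference. In U-937 its FPKM was 6.12, 4.92 and 5.02 with DMSO and 6.63, 7.89 and 9.24 with honokiol. In THP-1 it was 10.6, 10.97 and 8.12 with DMSO and 9.26, 8.03 and 8.96 with honokiol. The U-937 groups separated by a small gap and the THP-1 groups overlapped. The log2 fold change was 0.47 ± 0.20 (SE, n = 3 against 3) in U-937, with an edgeR p of 0.0438 and an adjusted p of 0.286, and -0.24 ± 0.17 in THP-1, with an adjusted p of 0.576. The THP-1 value was -0.13 without DMSO replicate 1 and -0.38 without DMSO replicate 3, with edgeR adjusted p of 0.767 and 0.301.

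MGST3 was at 4.75, 5.14 and 6.54 with DMSO and 5.44, 6.69 and 6.49 with honokiol in THP-1, and at 9.45, 9.27 and 11.8 against 11.7, 12.6 and 13.2 in U-937, with overlap in both. MGST1 in THP-1 was 4.34, 2.24 and 2.67 with DMSO and 2.42, 3.08 and 3.17 with honokiol. DMSO replicate 1 was its highest library, and the log2 fold change of -0.17 became 0.23 without it. GSTK1 differed by 0.02 ± 0.12 in THP-1 and 0.01 ± 0.13 in U-937 on the log2 scale (SE of the edgeR fit). The 4 mu class genes in THP-1 had log2 fold changes between -0.17 and 0.07, and the lowest edgeR adjusted p among them was 0.564.

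**Figure D3:**
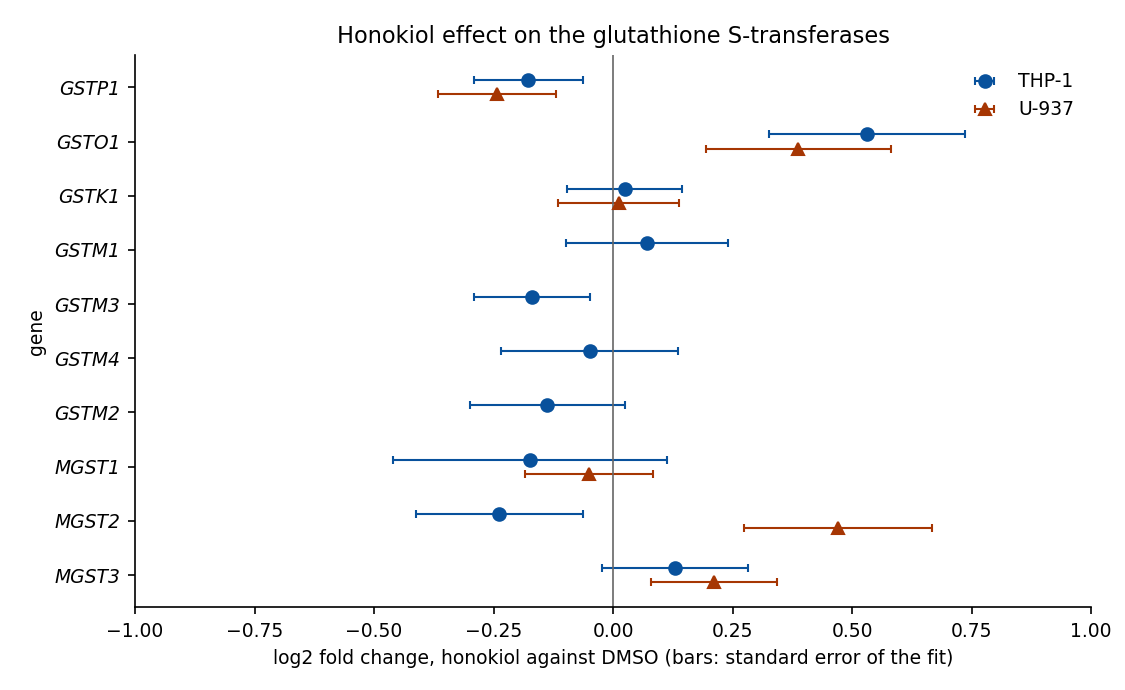
Log2 fold change of honokiol against DMSO for each member in THP-1 (circles) and U-937 (triangles), with the standard error of the edgeR fit over 3 against 3 libraries. The mu class genes have no U-937 value because they were not tested there, GSTO1 lies at 0.53 and 0.39, and no member passed the adjusted threshold.

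**Figure D4:**
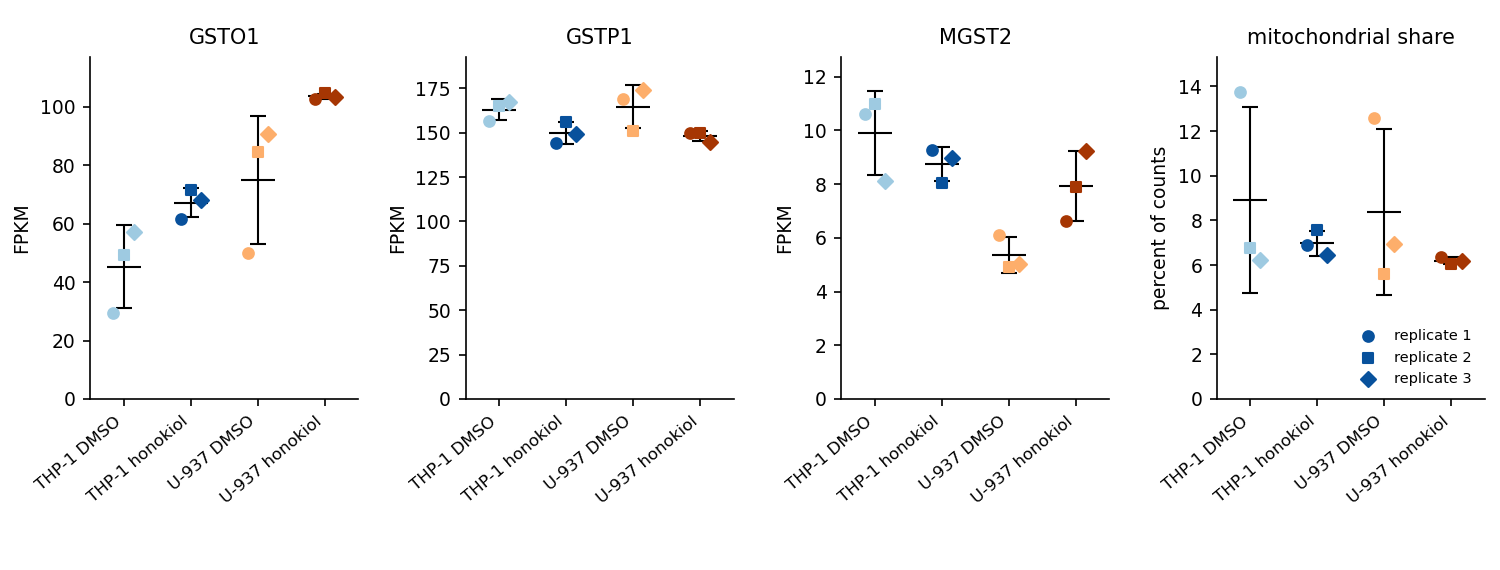
FPKM of GSTO1, GSTP1 and MGST2 and the mitochondrial share of counts (percent) in every library by line and treatment, with the mean and SD of 3 libraries. DMSO replicate 1 has the lowest GSTO1 value and the highest mitochondrial share in each line, and the GSTP1 honokiol values lie just below the DMSO values.

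Whether honokiol acted differently in the 2 lines was tested as the interaction of line and treatment in 1 edgeR fit of the 12 libraries. Of the 10 members 1, GSTM1, had an adjusted p under 0.05, at 0.0210, beside 0.111% of 16283 genes. At an unadjusted p under 0.05 there were 2 members, GSTM1 and MGST2, beside 9.37% of all genes. GSTM1 reached the level needed for this fit through its THP-1 libraries alone, so the value is given as a description of few counts and nothing is supported with it. The GSTM1 call rests on the 42 counts in U-937 honokiol libraries, worth 10.5 fragments, against none with DMSO. The honokiol level in U-937 was 0.498% to 0.897% of the mean of the THP-1 libraries. In the same U-937 libraries the summed FPKM of the 408 genes described above was 0.186% to 0.313% of its THP-1 mean, against 0.174% to 0.244% with DMSO. Of those 408 genes 146 had no count in the U-937 DMSO libraries, and 9 of these, GSTM1 among them, had counts in all 3 honokiol libraries. The reverse, counts in all 3 DMSO libraries and none with honokiol, was seen for 5 of the 408. All 408 were selected as low in U-937, so these values are no independent background for GSTM1. The part of reads from other libraries or from GSTM2 in the GSTM1 counts was not tested.

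The GSTM1 call was lost in several alternative fits. With counts divided by 4, so that 1 count stands for about 1 fragment, its edgeR adjusted p was 0.173, and with limma on log2(FPKM + 0.5) it was 0.934. It was also lost without THP-1 DMSO replicate 1 (edgeR adjusted p = 0.0642), THP-1 DMSO replicate 2 (0.0578), THP-1 DMSO replicate 3 (0.0690), THP-1 honokiol replicate 2 (0.0581), THP-1 honokiol replicate 3 (0.0576) or U-937 honokiol replicate 2 (0.0534). For MGST2 the difference between the lines was 0.70 ± 0.27 on the log2 scale, with an edgeR p of 0.0224 and an adjusted p of 0.439. MGST2 was lower with honokiol in THP-1 and higher in U-937, and this opposite sign did not pass the adjusted test. For GSTO1 the difference was -0.15 ± 0.30 and for GSTP1 -0.08 ± 0.14, with edgeR adjusted p of 0.941 and 0.939.

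Of 17 other enzymes of the family or with glutathione transferase activity, 12 were listed and 7 reached a test in THP-1 against 6 in U-937, with 0 called by edgeR's adjusted or unadjusted p in either line. GSTT2B, a theta class gene, was at 1.84 to 2.87 in THP-1 and at 0 in 5 of the 6 U-937 libraries, with 0.04 in the other. GSTM5 was listed and under the level needed for a test in both lines. GSTA1, GSTA2, GSTA3, GSTA5 and GSTT1 were not listed under these names, so no values are given for them.

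The enzymes that make, recycle, break down and export glutathione and its conjugates were read from lists chosen with earlier results known. None of their genes had an edgeR adjusted p under 0.05 within a line. Of the 5 genes of glutathione synthesis, 2 had an unadjusted p under 0.05 in THP-1 and the same 2 in U-937, all higher with honokiol, beside 13.1% and 16.7% of all genes, and the median log2 fold change of the list was 0.41 and 0.34, against 0.00 and 0.02 over all tested genes. These were SLC7A11 and SLC3A2, the chains of the cystine importer that feeds the pathway. The FPKM of SLC7A11 was 1.28, 0.93 and 0.80 with DMSO and 1.79, 3.31 and 3.71 with honokiol in THP-1. In U-937 it was 2.63, 2.11 and 3.20 with DMSO and 6.20, 7.34 and 8.97 with honokiol. Neither line passed the test, with edgeR adjusted p of 0.168 for THP-1 and 0.0606 for U-937. SLC3A2 had log2 fold changes of 0.41 and 0.48, with adjusted p of 0.353 and 0.227.

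Among 15 genes of glutathione reduction and peroxidases, 14 could be tested in THP-1 but 11 in U-937. In THP-1 2 were higher at an unadjusted p under 0.05 and 0 lower, and in U-937 2 were higher and 1 lower, beside 13.1% and 16.7% of all genes in either direction. IDH1, a source of cytosolic NADPH, was in both sets. Its FPKM with honokiol was 31.7 to 32.9 against 22.8 to 28.3 in THP-1 and 53.6 to 56.4 against 20.7 to 38.5 in U-937, with edgeR adjusted p of 0.338 and 0.125. Among 9 regulators, 3 were higher and 1 lower in THP-1 at an unadjusted p under 0.05, and 1 higher and 1 lower in U-937, beside the same shares of all genes. The lower ones were ARNT, the partner of the aryl hydrocarbon receptor, in THP-1 and MAFK, a small Maf protein, in U-937. On the log2 scale ARNT was at -0.36 in THP-1 and 0.11 in U-937. MAFK was at -0.48 in U-937, with FPKM overlap. In THP-1 it was at 0.69 without overlap, from 2.02 to 10.63 with DMSO and 11.07 to 15.26 with honokiol, and was not among those counted. MAFF, another small Maf protein, had the largest change of the list, 1.84 in THP-1 without overlap, against 0.34 in U-937 with overlap. ARNT, MAFK and MAFF were named after their values were seen, and none passed the adjusted test in either line. BACH1, a repressor at antioxidant response elements, had log2 fold changes of 0.52 ± 0.17 and 0.67 ± 0.14 (SE, n = 3 against 3), with edgeR adjusted p of 0.291 and 0.0995, and no overlap in either line.

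For the other lists the counts were small, read at an unadjusted p under 0.05 beside 13.1% of all genes for THP-1 and 16.7% for U-937. Of the conjugate exporters 5 were tested in THP-1, with 1 higher at an unadjusted p under 0.05, and 4 in U-937, with 1 lower. Of the 13 genes of glutathione and conjugate breakdown 10 were tested in each line, with 0 in THP-1 and 1 in U-937, lower, at that level. Of the 9 glyoxalase and aldehyde genes all 9 were tested in THP-1, with 2 higher and 1 lower, and 7 in U-937, with 0. The median log2 fold changes of these 3 lists were 0.25, 0.20 and 0.00 in THP-1 and -0.27, 0.15 and 0.14 in U-937. AKR1B1, the aldose reductase, was the 1 gene of these lists with an adjusted p under 0.05 for the difference between the lines, at 0.0210 in the edgeR fit of all libraries, which it entered through its THP-1 libraries alone. Its FPKM was 14.6 to 21.4 with DMSO and 22.5 to 24.3 with honokiol in THP-1, and 0.04 to 0.05 against 0.21 to 0.22 in U-937, where it was under the level needed for a test. For AKR1B1 this call was lost with counts divided by 4, at an edgeR adjusted p of 0.173. With limma on log2(FPKM + 0.5) its log2 difference was -0.04, with an adjusted p of 0.973, and on log2(FPKM + 1) it was -0.20, with 0.766. On log2(FPKM + 0.1) it was 0.69, with a limma adjusted p of 0.391. It was also lost without THP-1 DMSO replicate 1 (0.0568), THP-1 DMSO replicate 2 (0.0558), THP-1 honokiol replicate 2 (0.0681), THP-1 honokiol replicate 3 (0.0576) or U-937 honokiol replicate 2 (0.0534).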

How the data were processed

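Poly(A) mRNA of 12 libraries was measured as paired-end sequencing, 3 for each line and treatment. The deposited table holds, per gene and library, an FPKM value that the authors computed per length and library size, and an estimated count, a whole number as deposited and not normalized. The submitters' processing notes name HISAT2 2.0, StringTie 1.3.0 and Bowtie 0.12.2, and the mouse build mm8. The table's genes are human: 35762 of 36866 were found in GENCODE 29, and 62.8% of these had the same start and end on GRCh38. The count 4 occurred 17264 times, against 10103 for 1, 9533 for 2, 6764 for 3 and 4016 for 5. About 4 counts were therefore taken as 1 fragment, and totals overstate the number of fragments about 4-fold. Numbers of fragments given here are approximate. The labels and the paper's methods name different sequencers and RNA amounts.

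The members and all lists were chosen with earlier results of these data known. Genes that reached an FPKM of 0.5 in 3 or more libraries of a line (or of all 12) entered the quasi-likelihood test of edgeR 4.0.16 with TMM in R 4.3.3. Calls needed an adjusted p under 0.05. The levels by line were not tested. The test was checked on simulated counts. Genes outside the members were named where they had an unadjusted p under 0.05 and no FPKM overlap in both lines, or an adjusted p under 0.05. The 5 genes most like GSTM1 were taken by Pearson's r among genes with a mean FPKM of at least 1. Other genes were named after their values were seen. Alternatives were limma 3.58.1, DESeq2 1.42.0, RLE size factors, no filter, counts divided by 4, summed mu class genes, no mitochondrial genes, a replicate block, 1 fit of all 12 libraries and each replicate left out. Leaving out DMSO replicate 1 of both lines together was added after seeing the data.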

Additional observations from a re-analysis of the deposited data

Results flagged for a closer look

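In the edgeR test of the interaction, GSTM1 had an adjusted p of 0.0210 over 16283 genes, given as a description of few counts. It entered that fit through the THP-1 libraries alone, its U-937 values are those the choice of members used, and the call held in 10 of the 22 alternatives that fitted GSTM1. In THP-1 its FPKM was 8.66 to 11.5 with DMSO and 8.89 to 11.5 with honokiol, with a log2 fold change of 0.07. In U-937 it had no count in any of the 3 DMSO libraries and 17, 16 and 9 counts with honokiol, which is higher in 3 of 3 libraries. Together these were worth 10.5 fragments, and the part of reads from other libraries or from GSTM2 in them was not tested. All other members had an adjusted p of at least 0.439 in that test. Groups of 3 libraries are too small for a check of single outlying libraries.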

How the results depend on the processing

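No alternative gave a member an adjusted p under 0.05 within THP-1, and in U-937 only 1 fit of all 12 libraries did, with 1 member, GSTM1, which that fit tested. For the difference between the lines the count of 1 member fell to 0 with limma on log2(FPKM + 0.5), log2(FPKM + 0.1) or log2(FPKM + 1), with counts divided by 4, with a replicate block, with GSTM1 to GSTM5 summed, and without DMSO replicate 1 of both lines, and lay between 0 and 1 with single libraries left out. It stayed at 1 with RLE size factors, DESeq2, no filter and no mitochondrial genes. The GSTM1 adjusted p ran from 0.000398 with DESeq2 to 0.994 with limma on log2(FPKM + 1), where its log2 difference was -0.00976. Dividing counts by 4 lowers the number of counts behind each value, and limma works on FPKM with a pseudocount above the U-937 values. The cause of these and the other losses was not tested. The summed mu class genes had a THP-1 log2 value of -0.09, a U-937 value of 1.10 and a difference of 1.17, with edgeR adjusted p of 0.789, 0.291 and 0.350. The sum entered these fits without passing the level needed for a test. In U-937 it rests on few counts, such as 42 with honokiol against 0 with DMSO for GSTM1 and 58 against 53 for GSTM2. The choice of members used these U-937 levels, so the values of the sum are a description only.

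The 359 log2 fold changes under alternatives were those of members tested within a line, and the difference for GSTM1, GSTO1, MGST2 and GSTP1 only. Of these, 325 kept their direction and side of the threshold, 11 lost a call and 23 changed sign. The GSTM1 difference with limma on log2(FPKM + 1) was counted as a sign change and also lost its call. In THP-1, GSTM4 was 0.00979, 0.0111 and 0.00852 with the 3 limma fits. MGST1 in U-937 was 0.0403, 0.0429 and 0.0375 in those fits. GSTK1 in U-937 was -0.00367 with no filter, -0.000630 with RLE size factors, -0.000605 with DESeq2 and -0.00103 in 1 fit of all libraries. With single libraries left out, GSTM1 in THP-1 ran from -0.0136 to 0.186, GSTM4 in THP-1 from -0.163 to 0.0756, GSTK1 in THP-1 from -0.00749 to 0.0874, MGST1 in THP-1 from -0.379 to 0.228, GSTK1 in U-937 from -0.0357 to 0.0938, MGST1 in U-937 from -0.106 to 0.0328 and the GSTO1 difference from -0.353 to 0.0419.

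Within each line, DMSO and honokiol replicates of the same number were compared. The correlation of their deviations from the group means was -0.155 to 0.0929 over 6 pairs, 0 of them above 0.1, and 2 of 12 libraries correlated best with their own number. A link by number across the lines was not tested, and DMSO replicate 1 had the highest mitochondrial share in each line. With the replicate block, 0 members were called in THP-1, U-937 or the difference, and the genes called among all genes went from 6, 13 and 18 to 0 in each. The adjusted p of the difference was then 0.168 for both GSTM1 and AKR1B1. Over all genes DESeq2 called 505, 790 and 245, 1 fit of all 12 libraries 37 and 207 in the lines, counts divided by 4 called 5, 10 and 0, and limma on log2(FPKM + 0.5) called 0, 18 and 2. With no filter the counts were 0, 12 and 12. At 4 counts a fragment, the values of each single mu class gene in U-937 rest on at most 14.5 fragments a group. Differences there were not detectable beyond that depth.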
